A study of Mus musculus with 224 samples.

Results

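Livers of BALB/cJ mice on day 13 of a high-fat diet (HFD) were compared with livers of BALB/cJ mice on regular chow (RC) of the same day. The 8 libraries were chosen by their labels for strain, diet, day and tissue, 4 of HFD animals and 4 of RC animals. They are 8 of the 72 libraries of the liver table, which holds 3 inbred strains (BALB/cJ, C57BL/6J and DBA/2J) on either diet, and the series also covers soleus muscle and visceral fat. Sample labels give day 5, 13 or 33. BALB/cJ is an albino inbred laboratory strain, and the labels name no mutation and no drug in any group. No source used here gives the composition of the diets, the age and sex of the animals or the hour of sampling. The HFD animals are titled 3HF228, 3HF230, 3HF252 and 3HF254 and the RC animals 3RC228, 3RC230, 3RC252 and 3RC255, and values per animal follow that order. Each diet thus had 2 animals of a middle number range (the first in each list) and 2 of an upper number range (the last). What the number ranges stand for is not stated in the labels.

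The liver makes much of the body's cholesterol through the mevalonate and sterol pathway, whose genes are switched on by the transcription factor SREBP2 when the cell is short of sterol. It also clears drugs, steroids and other foreign compounds with cytochrome P450 enzymes, glucuronosyltransferases, glutathione transferases and carboxylesterases, many of them under the nuclear receptors PXR and CAR. Fatty acids that reach the liver are burnt in mitochondria and peroxisomes, with PPARα as a main transcriptional regulator. Many liver genes also follow the time of day through the circadian clock and glucocorticoid hormone.

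Levels are the deposited log2 CPM (read counts scaled to a common library size, on a log2 scale), and fold changes are HFD minus RC on that scale with their standard error. Summed over the genes tested, libraries held 18100000 to 27300000 reads on HFD and 22900000 to 26700000 on RC, as recovered from the values. Of the 10 hepatocyte markers 9 were measured, and they summed to 99700 to 120000 CPM on HFD and 98500 to 111000 CPM on RC. None of the 12 lists of cell type markers held a gene that passed the test of diet by limma, and of the neutrophil list 0 genes were measured. In bulk tissue, fewer cells of a type and less RNA per cell cannot be told apart.

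On day 13, 46 of 12611 genes (0.365%) passed an adjusted p of 0.05 by limma. Of these 39 fell on HFD (0.309% of genes tested) and 7 rose (0.0555%). Enzymes of cholesterol synthesis and enzymes of drug and steroid clearance were prominent among the genes that fell, and 28 of the 46 genes changed by more than 2-fold. In 38 of the 46 the HFD animals did not overlap the RC animals. Over all genes, 1.96% had every HFD animal above every RC animal and 2.27% had every HFD animal below. All 46 had the same sign within the middle and within the upper number range. The same animals made the call, and in genes without overlap an equal sign in both ranges was fixed in advance. The median log2 fold change over all genes was 0.015, and 779 genes had an unadjusted p under 0.05.

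The count depended on the fit. With the animal number as a block 29 genes passed, 22 that fell and 7 that rose, and 21 of them were among the 46. The block fit had 12 residual degrees of freedom, against 54 in the main fit. It took the day 13 diet effect from the 3 numbers found in both diets, since 3HF254 and 3RC255 share no number with the other diet. The 8 libraries alone gave 14 genes and the 24 BALB/cJ libraries alone gave 5. Without 3HF228 it was 29 and without 3HF254 it was 24. Without 3RC228, 3RC252 or 3RC255 it was 30, 24 or 20, and without 3RC230 it was 69.

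**Figure D1:**
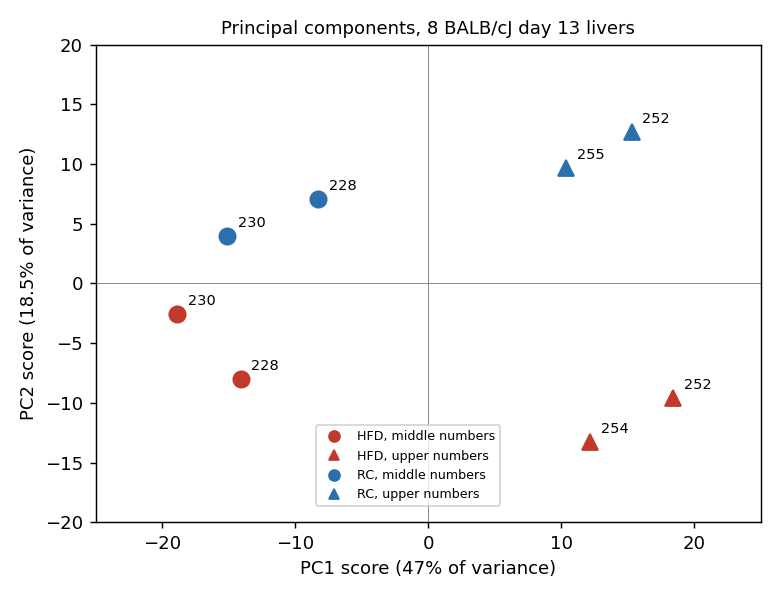
Scores of the 8 BALB/cJ day 13 livers on the first principal components of 6306 genes. Red marks HFD and blue RC, circles the middle and triangles the upper number range, with animal numbers beside the points. PC1 (47% of the variance) separates the number ranges, and PC2 (18.5%) separates the diets, with the 4 HFD livers below 0 and the 4 RC livers above.

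Genes of cholesterol synthesis and uptake were lower on HFD. Of the 25 genes of this list 7 fell, against 0.309% of all genes, and 0 rose. All 25 had a negative fold change, while of all 12611 genes 5844 were negative and 6758 positive. In 18 of the 25 every HFD animal lay below every RC animal, against 2.27% of all genes. This and the other gene lists were chosen with earlier results of these data known. The median log2 fold change of the list was -1.10, against 0.01 over all genes. Summed over the list, the livers held 1590 to 2170 CPM on HFD and 2620 to 4420 CPM on RC.

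Sqle (ENSMUSG00000022351, chromosome 15, 59315077 to 59331192, GRCm38) encodes squalene epoxidase, which turns squalene towards sterols. It stood at 2.46, 3.27, 3.44 and 1.98 log2 CPM on HFD, against 5.43, 5.18, 6.02 and 6.52 log2 CPM on RC. The lowest RC liver lay well above the highest HFD liver. The fold change was -3.00 ± 0.55, 8-fold lower on HFD (limma, adjusted p = 0.00164). With the animal number as a block the adjusted p was 0.0714.

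Enzymes of the mevalonate arm fell as well. Idi1, which isomerises the isoprenoid unit, stood at 1.98, 2.07, 2.55 and 2.04 log2 CPM on HFD, against 3.89, 3.58, 4.99 and 4.84 log2 CPM on RC (fold change -2.17 ± 0.51, adjusted p = 0.0297). Mvd, the decarboxylase just before it, stood at 1.92, 2.09, 2.98 and 1.35 log2 CPM on HFD, against 3.78, 3.29, 4.53 and 4.62 log2 CPM on RC (fold change -1.97 ± 0.45, adjusted p = 0.0181). In both genes the HFD animals did not overlap the RC animals. Mvk, mevalonate kinase, was tight within groups, at 3.26 to 3.46 log2 CPM on HFD and 4.07 to 4.48 log2 CPM on RC (fold change -0.96 ± 0.23, adjusted p = 0.035). With the animal number as a block the adjusted p was 0.165 for Idi1, 0.211 for Mvd and 0.332 for Mvk.

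The later enzymes, which turn lanosterol into cholesterol, gave a like picture. Cyp51, the lanosterol demethylase, stood at 4.59, 5.07, 5.82 and 4.95 log2 CPM on HFD, against 6.37, 6.16, 7.17 and 7.19 log2 CPM on RC (fold change -1.61 ± 0.35, adjusted p = 0.0123). Tm7sf2, a sterol reductase, stood at 5.90, 6.00, 5.98 and 5.95 log2 CPM on HFD, against 6.98, 6.78, 7.55 and 7.44 log2 CPM on RC (fold change -1.23 ± 0.27, adjusted p = 0.017). Msmo1, the methylsterol oxidase, stood at 4.92 to 5.94 log2 CPM on HFD and 6.80 to 7.49 log2 CPM on RC (fold change -1.69 ± 0.42, adjusted p = 0.0486). In all 3 genes every HFD liver was below every RC liver, and Tm7sf2 hardly varied within HFD. Tm7sf2 also passed with the animal number as a block (adjusted p = 0.0342), while Cyp51 (0.113) and Msmo1 (0.221) did not. Tmem97, a sterol-regulated membrane protein outside the list, fell too, with 4.81 to 5.54 log2 CPM on HFD and 5.83 to 6.09 log2 CPM on RC (fold change -0.91 ± 0.18, adjusted p = 0.00469).

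Regulators of the pathway that were in the list did not pass the test. Srebf2, which encodes SREBP2, differed by -0.11 ± 0.17 (adjusted p = 0.999) and its groups overlapped. Insig1, a sterol-dependent brake on SREBP2, stood at 5.87 to 7.14 log2 CPM on HFD and 7.21 to 8.15 log2 CPM on RC (fold change -1.07 ± 0.36, adjusted p = 0.298), with every HFD animal below every RC animal.

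**Figure D2:**
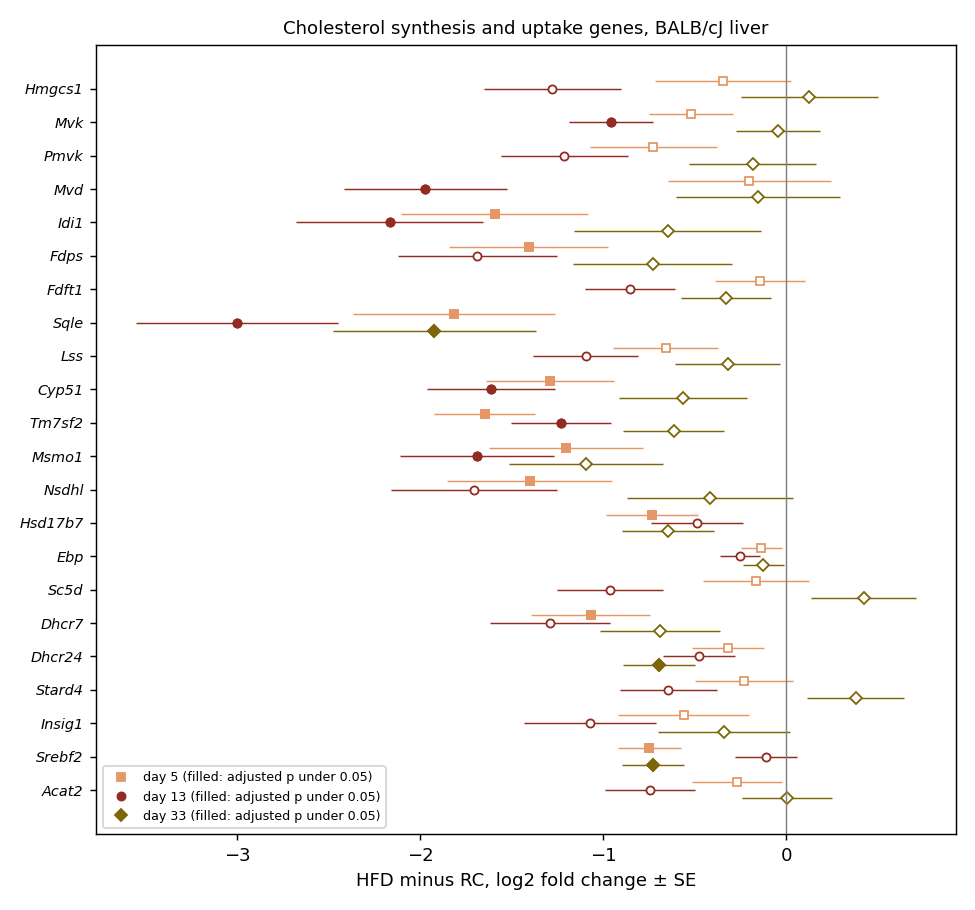
Log2 fold change (HFD minus RC) with its standard error of 22 of the 25 genes of cholesterol synthesis and uptake in BALB/cJ liver on day 5, 13 and 33, with 4 animals per diet and day. Filled symbols passed an adjusted p of 0.05. On day 13 all 22 genes drawn lie left of 0, with Sqle at -3.00 and Srebf2 at -0.11.

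Promoter windows are shown for 2 of the sterol enzymes that fell and for 2 of the clearance enzymes described next, to show where one motif, the CCAAT box, lies in each. Each window runs from 250 bases before to 50 bases after a RefSeq start (GRCm38.p6), on the strand of the gene and 5′ to 3′. Capitals mark the CCAAT box (CCAAT, or ATTGG where it lies on the other strand). The windows are chr5:4104648-4104947 on the minus strand for Cyp51, chr19:6067801-6068100 on the minus strand for Tm7sf2, chr19:39006769-39007068 on the plus strand for Cyp2c55 and chr9:78347096-78347395 on the minus strand for Gsta2.
Cyp51: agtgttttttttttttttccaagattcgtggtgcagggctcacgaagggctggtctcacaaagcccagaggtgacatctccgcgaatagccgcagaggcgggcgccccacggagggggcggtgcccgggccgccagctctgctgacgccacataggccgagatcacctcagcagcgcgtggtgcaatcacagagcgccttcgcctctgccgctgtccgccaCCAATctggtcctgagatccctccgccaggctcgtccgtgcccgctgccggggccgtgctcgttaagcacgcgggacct
Tm7sf2: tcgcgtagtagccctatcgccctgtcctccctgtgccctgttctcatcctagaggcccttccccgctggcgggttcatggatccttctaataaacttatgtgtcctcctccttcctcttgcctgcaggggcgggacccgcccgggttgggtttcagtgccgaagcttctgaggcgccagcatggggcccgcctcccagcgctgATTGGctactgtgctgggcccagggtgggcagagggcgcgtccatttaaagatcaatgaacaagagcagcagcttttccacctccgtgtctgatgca
Cyp2c55: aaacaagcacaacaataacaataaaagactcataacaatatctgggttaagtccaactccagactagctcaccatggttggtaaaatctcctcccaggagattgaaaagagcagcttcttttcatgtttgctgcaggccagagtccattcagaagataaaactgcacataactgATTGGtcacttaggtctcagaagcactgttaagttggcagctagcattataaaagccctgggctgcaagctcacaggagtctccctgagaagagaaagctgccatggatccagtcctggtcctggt
Gsta2: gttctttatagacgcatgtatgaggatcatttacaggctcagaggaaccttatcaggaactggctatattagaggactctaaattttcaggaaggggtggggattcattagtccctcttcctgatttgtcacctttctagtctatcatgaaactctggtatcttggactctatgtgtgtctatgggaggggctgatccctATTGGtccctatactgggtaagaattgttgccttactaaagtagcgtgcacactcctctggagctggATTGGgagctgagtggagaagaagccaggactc
The box lies 29 bases before the start in Cyp51, 47 in Tm7sf2 and 76 in Cyp2c55, and Gsta2 has one 50 bases before and another 17 bases after its start. In Cyp3a59, a clearance enzyme that fell and whose window is not shown, it lies 233 bases before the start. Of the 25 genes of the cholesterol list 17 had an entry, and 16 of these held the box in at least 1 window, against 41.1% of the 27025 genes of the RefSeq table. The box was added to the search after the data had been seen. Of the 39 genes that fell 34 had an entry and 21 held the box, and of the 7 that rose 4 had an entry and 0 held it. In the cholesterol list the sterol element TCACNCCAC was found in 1 gene (Hmgcs1), against 1.44% of all genes. The E-box CACGTG was found in 4, against 8.09%, and the antioxidant response element TGACNNNGC in 4, against 14%. The D-box TTATGNAA and the direct repeat 1 (AGGTCA, any base, AGGTCA) were found in 0, against 3.99% and 0.0481%. Both strands were read, the motifs were searched apart from each other, and a match is a run of letters and not a shown binding site. Each motif was searched in the given spelling alone, so other forms, such as those of the sterol element, were not counted.

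Enzymes of drug and steroid clearance were the other group. Of 29 measured genes of xenobiotic cytochromes and transporters 5 fell, against 0.309% of all genes, and 0 rose. The fold change was negative in 17 and positive in 12, with a median of -0.33 on the log2 scale. Cyp2c55 (ENSMUSG00000025002, chromosome 19, 39007019 to 39042693, GRCm38), a cytochrome that oxidises fatty acids, had the largest change of the 46 genes. It stood at -1.70, -1.43, -2.65 and -1.18 log2 CPM on HFD, against 1.72, 1.00, 1.95 and 1.59 log2 CPM on RC. Every HFD liver was below every RC liver. The fold change was -3.31 ± 0.40, 9.9-fold lower on HFD (adjusted p = 2.47e-07).

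Cyp3a11 (chromosome 5, 145854426 to 145879964, GRCm38), a major drug-oxidising cytochrome and PXR target, was far more abundant. It stood at 10.14, 9.53, 10.94 and 10.97 log2 CPM on HFD, against 12.07, 12.15, 13.02 and 12.67 log2 CPM on RC (fold change -2.08 ± 0.33, adjusted p = 9.47e-05). Cyp3a59 and Cyp3a25, also on chromosome 5, differed by -1.66 ± 0.24 (adjusted p = 3.32e-05) and -0.77 ± 0.16 (adjusted p = 0.00648). In all 3 Cyp3a genes every HFD animal was below every RC animal. Aldh1a7, an aldehyde dehydrogenase, stood at 6.93 to 7.38 log2 CPM on HFD and 7.40 to 8.68 log2 CPM on RC (fold change -0.98 ± 0.20, adjusted p = 0.00671). Cyp3a, Aldh1a and glutathione transferase genes have near-identical copies, and the labels do not say how reads that match several genes were counted.

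Conjugating enzymes and esterases were among the genes that fell. Ugt1a9, a glucuronosyltransferase that shares exons with other Ugt1a genes, stood at 3.13, 3.42, 3.63 and 4.16 log2 CPM on HFD, against 4.69, 4.87, 6.05 and 6.17 log2 CPM on RC (fold change -1.86 ± 0.32, adjusted p = 0.000455). Ces2a, a carboxylesterase, stood at 7.47 to 7.97 log2 CPM on HFD and 8.30 to 8.55 log2 CPM on RC (fold change -0.72 ± 0.15, adjusted p = 0.00942). Neither gene overlapped between diets. Ces2a was the 1 of 13 carboxylesterases that passed, and the median of that list was -0.14.

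Of 20 glutathione transferases, which attach glutathione to reactive compounds, 1 fell and 0 rose, and 18 had a negative fold change (median -0.43). In 11 of the 20 every HFD animal was below every RC animal, against the 2.27% of all genes given above. Summed over the list, the livers held 6230 to 7960 CPM on HFD and 8290 to 10900 CPM on RC. Gsta2 (chromosome 9, 78331018 to 78355788, GRCm38), of the alpha class, stood at 2.26, 2.01, 2.80 and 3.42 log2 CPM on HFD, against 4.56, 4.16, 5.28 and 4.74 log2 CPM on RC. Every HFD liver was below every RC liver, and the fold change was -2.06 ± 0.46 (adjusted p = 0.0156). Gstm5, of the mu class and outside the list, stood at 2.48 to 3.15 log2 CPM on HFD and 3.38 to 3.85 log2 CPM on RC (fold change -0.71 ± 0.17, adjusted p = 0.0297, and 0.216 with the animal number as a block). Gstm4 (-0.95, adjusted p = 0.05 as rounded), Gstt3 (-1.28, 0.0633) and Gstm2 (-1.46, 0.0783) did not pass. Of 16 measured targets of NRF2, the regulator of antioxidant genes, 0 passed and all 16 had a negative fold change (median -0.30). Over all genes the fold change was negative in 5844 of 12611, and 0.309% fell.

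**Figure D3:**
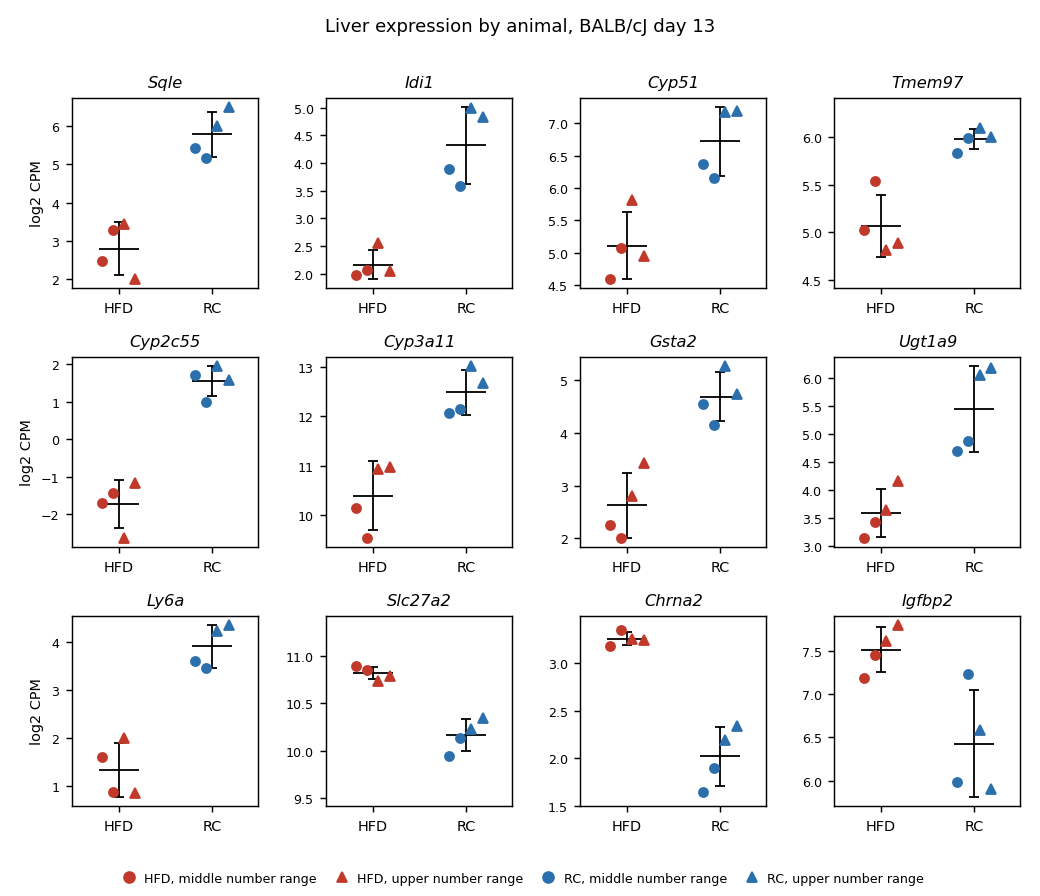
Levels (log2 CPM) of 12 genes in each BALB/cJ liver on day 13, HFD left and RC right in each panel. Circles mark the middle and triangles the upper number range, and bars give the mean and SD of 4 animals. The first 9 genes are lower in every HFD liver than in every RC liver, Slc27a2 and Chrna2 are higher in every HFD liver, and Igfbp2 overlaps through 1 RC liver.

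The remaining genes that fell had other roles. Ly6a, the surface antigen Sca-1 of stem and endothelial cells, stood at 1.59, 0.86, 1.99 and 0.84 log2 CPM on HFD, against 3.61, 3.46, 4.24 and 4.36 log2 CPM on RC (fold change -2.60 ± 0.41, adjusted p = 0.000114). The 9 endothelial markers summed to 119 to 210 CPM on HFD and 121 to 215 CPM on RC. Csad, which makes taurine for bile acid conjugation, stood at 5.56, 7.13, 7.10 and 5.97 log2 CPM on HFD, against 7.91, 8.21, 8.13 and 8.51 log2 CPM on RC (fold change -1.75 ± 0.36, adjusted p = 0.00726). In both genes every HFD liver was below every RC liver. Mmd2 stood at 0.38 to 1.39 log2 CPM on HFD and 2.41 to 3.29 log2 CPM on RC (fold change -1.79 ± 0.38, adjusted p = 0.00894). Of the 17 bile acid genes listed 0 passed.

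Other genes fell by smaller amounts. Gm2a, the activator protein for ganglioside breakdown, stood at 6.49, 6.74, 6.33 and 6.70 log2 CPM on HFD, against 7.13, 7.17, 7.07 and 7.04 log2 CPM on RC (fold change -0.54 ± 0.10, adjusted p = 0.0011). The mannosidase Man2b2 differed by -0.45 ± 0.11 (adjusted p = 0.0423), the dipeptidyl peptidase Dpp7 by -0.44 ± 0.11 (adjusted p = 0.0405) and the carboxypeptidase Scpep1 by -0.53 ± 0.12 (adjusted p = 0.0123). In these 4 genes every HFD liver was below every RC liver. With the animal number as a block Gm2a passed (adjusted p = 0.0237), while Man2b2, Dpp7 and Scpep1 did not pass (adjusted p = 0.0928, 0.324 and 0.406).

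The other genes that fell and did not overlap between diets were Rnd2, a small GTPase (-1.33 ± 0.20, adjusted p = 4.03e-05), Atg16l2, a relative of the autophagy gene Atg16l1 (-1.29 ± 0.25, 0.00428), and Gcat of threonine breakdown (-0.60 ± 0.11, 0.00227). They also included the Ras relative Rras (-0.67 ± 0.13, 0.00558), the aldehyde dehydrogenase Aldh1b1 (-1.23 ± 0.30, 0.0405) and the aldolase Aldoc (-1.19 ± 0.29, 0.037). The last were the dicarboxylate transporter Slc13a2 (-1.38 ± 0.33, 0.0297) and Rdh16f2, of the retinol dehydrogenase family (-0.90 ± 0.21, 0.0233). With the animal number as a block Rnd2 (0.076), Atg16l2 (0.0952) and Rras (0.0913) did not pass. The retinol dehydrogenase Rdh11 (-1.34 ± 0.33, 0.0423), the zinc finger gene Sall2 (-1.11 ± 0.25, 0.018) and Hfe, which acts on iron uptake (-0.53 ± 0.13, 0.037), fell with overlap and did not pass with the block (adjusted p = 0.51, 0.434 and 0.369).

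Some calls rested on animals that were not alike within a diet. Isoc2b stood at 0.97, 0.71, -1.53 and -2.15 log2 CPM on HFD, against 0.92, 1.72, 1.78 and 0.82 log2 CPM on RC (adjusted p = 0.017, and 0.447 with the animal number as a block). Its groups overlapped, and HFD minus RC was -0.48 within the middle and -3.14 within the upper number range. Snhg11, a host gene of small nucleolar RNAs, stood at 2.16, 1.54, -0.33 and 0.26 log2 CPM on HFD, against 3.94, 3.14, 1.93 and 3.69 log2 CPM on RC with overlap (fold change -2.27 ± 0.47, adjusted p = 0.00734, and 0.085 with the block). The mitochondrial tRNA genes mt-Tw (-1.56, adjusted p = 0.00952) and mt-Tm (-1.21, adjusted p = 0.0423) also passed, although a poly(A) library is not made to measure such short RNAs, and neither passed with the block (0.259 and 0.221).

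The 7 genes that rose were Slc27a2, Chrna2, Ephx2, Igfbp2, Ginm1, B430219N15Rik and Nox4. Slc27a2 (chromosome 2, 126552407 to 126588243, GRCm38), an acyl-CoA synthetase and fatty acid transporter, stood at 10.89, 10.85, 10.74 and 10.79 log2 CPM on HFD, against 9.95, 10.14, 10.23 and 10.35 log2 CPM on RC. Every HFD liver was above every RC liver, and the fold change was 0.65 ± 0.12 (adjusted p = 0.0011). Igfbp2, a binding protein of insulin-like growth factors, stood at 7.19, 7.46, 7.62 and 7.81 log2 CPM on HFD, against 5.98, 7.24, 6.59 and 5.90 log2 CPM on RC (fold change 1.09 ± 0.23, adjusted p = 0.00837, and 0.216 with the animal number as a block). The RC liver 3RC230 lay within the range of the HFD livers.

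Chrna2, a nicotinic acetylcholine receptor subunit, stood at 3.18, 3.35, 3.25 and 3.24 log2 CPM on HFD, against 1.64, 1.90, 2.19 and 2.34 log2 CPM on RC (fold change 1.24 ± 0.27, adjusted p = 0.0123). Ephx2, the soluble hydrolase of fatty acid epoxides, stood at 9.94, 10.17, 10.40 and 10.37 log2 CPM on HFD, against 9.51, 9.59, 9.73 and 9.96 log2 CPM on RC (fold change 0.53 ± 0.12, adjusted p = 0.0174, and 0.0632 with the block). Chrna2 did not overlap between diets, and Ephx2 did. These genes are neighbours on chromosome 14, on opposite strands and 10.5 kb apart. Ginm1 (fold change 0.51 ± 0.11, adjusted p = 0.0178) and the antisense gene B430219N15Rik (fold change 2.81 ± 0.69, adjusted p = 0.0423) overlap each other on opposite strands of chromosome 10. The library kit marks strand, but the labels do not say whether reads were counted by strand. Nox4, an oxidase that makes hydrogen peroxide, differed by 0.68 ± 0.17 (adjusted p = 0.0461) with overlap. With the block Ginm1, B430219N15Rik and Nox4 did not pass (adjusted p = 0.192, 0.41 and 0.447).

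In 20 of the 24 pathway lists no gene passed on day 13, and these included the main lists of fat metabolism. Of 23 genes of fatty acid and triglyceride synthesis 0 passed and 18 had a negative fold change (median -0.29). Their sum was 9690 to 15300 CPM on HFD and 9500 to 40800 CPM on RC, so the RC livers differed more among themselves. Me1, the malic enzyme, stood at 6.76, 7.14, 7.81 and 7.35 log2 CPM on HFD, against 8.07, 7.46, 8.43 and 9.28 log2 CPM on RC with overlap (fold change -1.05 ± 0.32, adjusted p = 0.194).

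Of 18 genes of mitochondrial fatty acid oxidation 0 passed and 15 had a positive fold change (median 0.16). Their sum was 5150 to 5500 CPM on HFD and 4370 to 5130 CPM on RC. Of 23 targets of PPARα 0 passed and 18 had a positive fold change (median 0.27). Over all genes the fold change was positive in 6758 of 12611. Cyp4a14, a fatty acid hydroxylase and PPARα target, stood at 4.42 to 7.53 log2 CPM on HFD and -0.07 to 3.78 log2 CPM on RC. Every HFD liver was above every RC liver, but the spread within each diet was wide and the gene did not pass (fold change 3.17 ± 1.26, adjusted p = 0.558).

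The diet comparison was then set beside those of day 5 and day 33 in BALB/cJ, which used other animals. On day 5, 784 genes fell (6.22%) and 790 rose (6.26%), and on day 33, 621 fell (4.92%) and 589 rose (4.67%). Of the 39 genes that fell on day 13, 36 had the same sign on day 5 and 16 fell there, and 38 had the same sign on day 33 and 14 fell there. Of all genes, 46.9% had a negative sign on day 5 and 49.2% on day 33. The median log2 fold change of the 39 was -0.63 on day 5, -1.29 on day 13 and -0.62 on day 33, where the day 13 value comes from the comparison that chose them. Cyp2c55, Sqle, Ly6a, Cyp3a11, Atg16l2, Ces2a and Gm2a fell on all 3 days. Of the 7 cholesterol genes called on day 13, 5 also fell on day 5 and 1, Sqle, on day 33. The median of the cholesterol list was -0.66 on day 5, -1.10 on day 13 and -0.42 on day 33.

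Of the 7 genes that rose on day 13, 2 had the same sign on day 5 and 2 on day 33, and 0 rose on either day. Of all genes, 53% had a positive sign on day 5 and 50.8% on day 33. Nox4 (-0.61, adjusted p = 0.0115) and B430219N15Rik (-1.98, adjusted p = 0.048) fell on day 5, and Ginm1 (-0.56, adjusted p = 0.000864) fell on day 33. Slc27a2 differed by 0.10 on day 5, 0.65 on day 13 and -0.22 on day 33.

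**Figure D4:**
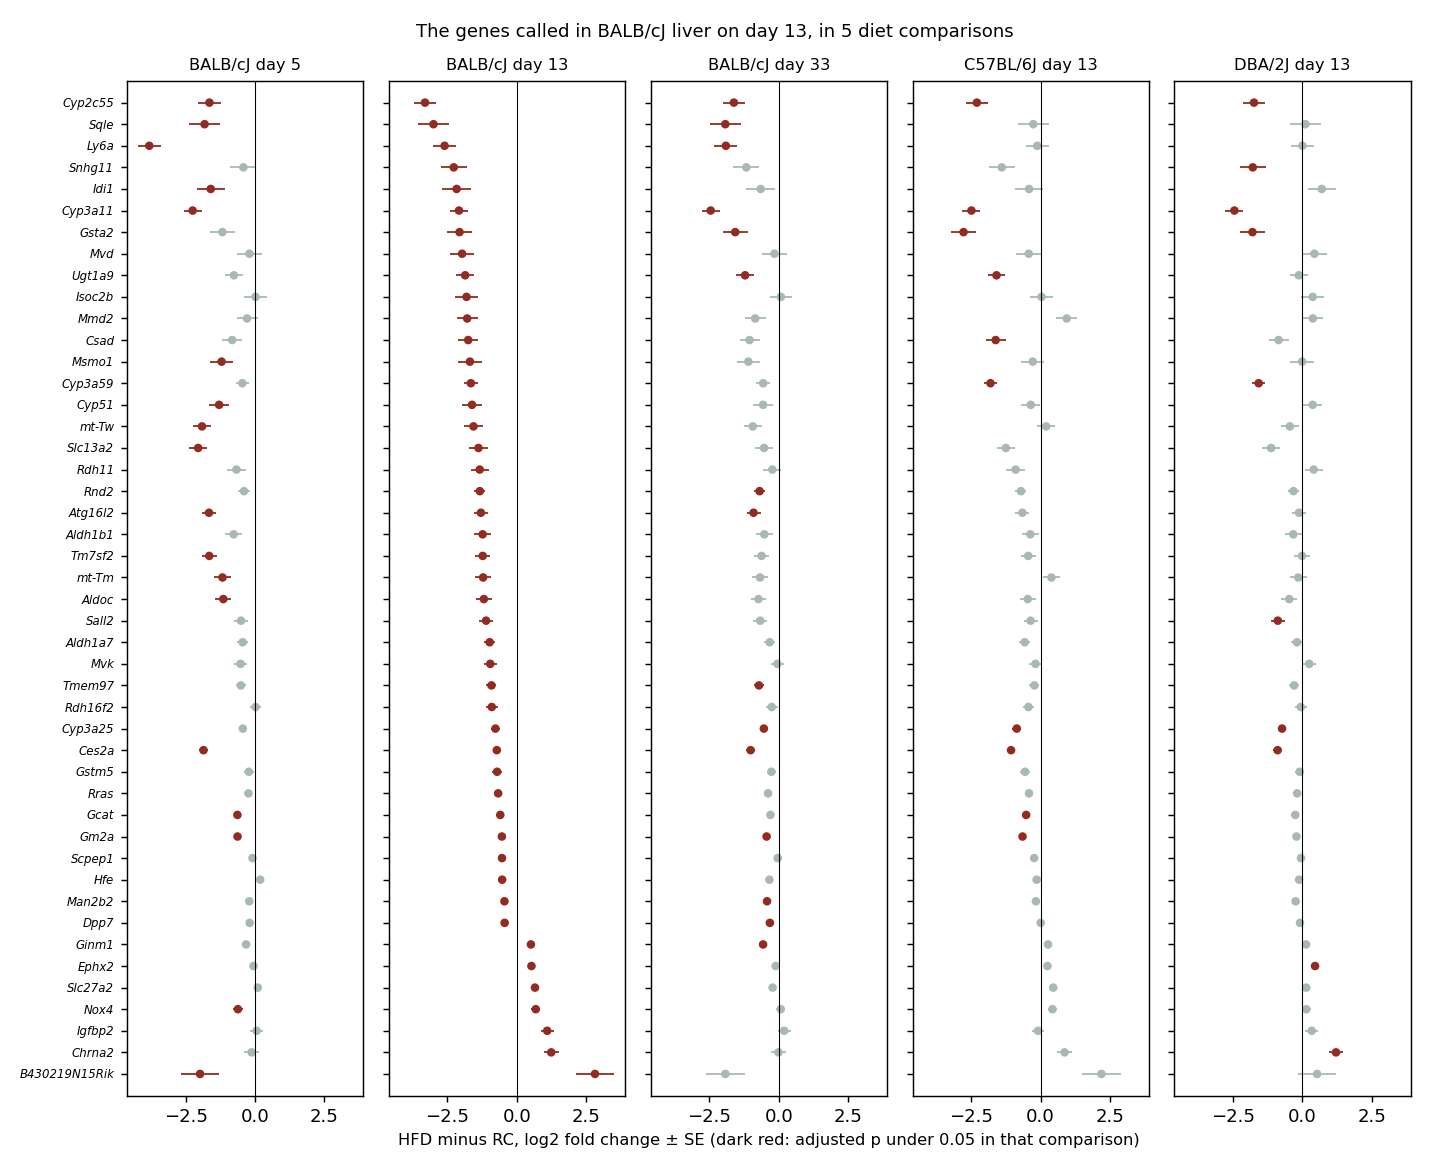
Log2 fold change (HFD minus RC) with its standard error of the 46 genes called in BALB/cJ liver on day 13, in that comparison and in 4 others. Dark red marks genes that passed an adjusted p of 0.05 in the comparison of the panel. Of the 39 genes that fell, 25 lie left of 0 in all 4 other panels, and of the 7 that rose, 2 lie right of 0 on day 5 and 2 on day 33.

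The difference between days was tested as the day 13 diet effect minus the mean of days 5 and 33. It passed in 603 genes (4.78%), with the day 13 effect higher in 405 and lower in 198. It passed for 14 of the 46 day 13 genes, among them all 7 that rose. The day 13 effect that chose these 46 genes is part of this difference. Their share therefore cannot be set against that of all genes. The genes of smallest p included Errfi1, Ginm1, Enpp2, Cebpd and Pim3. Errfi1, a feedback inhibitor of the EGF receptor, differed by -1.89 on day 5, 0.26 on day 13 and -1.63 on day 33, a difference of 2.02 ± 0.28 (adjusted p = 2.16e-05). It fell on day 5 and day 33 and did not pass on day 13. Cebpd, a transcription factor, differed by -1.96 on day 5, 0.16 on day 13 and -2.58 on day 33, a difference of 2.43 ± 0.38 (adjusted p = 7.48e-05).

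Genes induced by glucocorticoid hormone differed between days. Of 10 such genes 7 fell on day 5 (median -1.70), 0 passed on day 13 (median 0.42) and 8 fell on day 33 (median -2.62), and the difference between days passed for 6. Per1, also a clock gene, differed by -1.66 on day 5, 0.41 on day 13 and -2.97 on day 33. The number ranges were not balanced on the other days. On day 5 the HFD group had 3 animals of a lower range and 1 of the middle range, and the RC group 3 of the lower and 1 of the upper range. On day 33 the HFD group had 1 lower and 3 upper animals, and the RC group 3 lower and 1 upper. With number range as a term the difference between days passed in 742 genes, and with the animal number as a block in 282. It passed in 291 genes without 3HF252, 267 without 3HF254 and 351 without 3RC228.

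The diet comparison of day 13 was also made in the other strains. In C57BL/6J 26 fell (0.206%) and 14 rose (0.111%), and in DBA/2J 141 fell (1.12%) and 100 rose (0.793%). Of the 39 genes that fell in BALB/cJ, 34 had the same sign in C57BL/6J and 10 fell there, and 30 had the same sign in DBA/2J and 8 fell there. Of all genes, 47.9% had a negative sign in C57BL/6J and 47.8% in DBA/2J. Cyp2c55, Cyp3a11 and Ces2a fell in all 5 diet comparisons. Of the 7 genes that rose, 2 also rose in DBA/2J, the neighbours Chrna2 (1.21 ± 0.27, adjusted p = 0.00919) and Ephx2 (0.46 ± 0.12, adjusted p = 0.0278).

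The difference between BALB/cJ and the mean of the other strains passed in 2 genes (0.0159%), Ly6a and Mmd2. Ly6a differed by -2.60 in BALB/cJ, -0.12 in C57BL/6J and 0.00 in DBA/2J, a difference of -2.54 ± 0.51 (adjusted p = 0.0336). Mmd2 differed by -1.79 in BALB/cJ, 0.94 in C57BL/6J and 0.38 in DBA/2J, a difference of -2.45 ± 0.46 (adjusted p = 0.0225). The median of the cholesterol list was -0.41 in C57BL/6J and 0.17 in DBA/2J, with 0 genes called in either. Sqle differed by -0.26 in C57BL/6J and 0.11 in DBA/2J, and its difference from BALB/cJ did not pass (-2.92 ± 0.68, adjusted p = 0.196). The DBA/2J HFD group had 2 animals of the middle and 2 of the upper range and its RC group 4 of the middle range, while C57BL/6J had 2 of each in both diets. Ly6a did not pass with the animal number as a block (adjusted p = 0.269 by limma), and Mmd2 did (0.0181). The block took the C57BL/6J diet effect from the 1 number found in both diets and that of DBA/2J from 2. It therefore cannot decide between Ly6a and Mmd2. The strain difference passed in 1 gene without 3HF228, which was neither Ly6a nor Mmd2. Without 3HF230 it passed in Mmd2, and it passed in 0 genes without 3HF254, 3RC252 or 3RC255.

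Among the 8 livers the number ranges differed in more genes than the diets. With diet as a term, 1298 genes differed between the upper and the middle range (10.3%), 561 higher and 737 lower in the upper range. Dbp, a clock output factor, stood at 6.18, 7.63, 1.07 and 0.88 log2 CPM on HFD and 6.49, 7.46, 1.32 and 0.68 log2 CPM on RC, and upper minus middle was -5.95 ± 0.33 (adjusted p = 0.000296). Nfil3, a repressor that competes with it, stood at 4.29, 4.05, 6.52 and 6.49 log2 CPM on HFD and 4.11, 4.15, 6.02 and 6.12 log2 CPM on RC, and upper minus middle was 2.14 ± 0.10 (adjusted p = 0.000159). In both genes the ranges separated within each diet. Of the 19 clock genes 6 were higher and 7 lower in the upper range, and 0 passed for diet.

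Of the 10 glucocorticoid-induced genes 5 were higher in the upper range. Zbtb16, a transcription factor, stood at 2.20, 1.36, 5.89 and 6.13 log2 CPM on HFD and 2.70, 1.63, 5.59 and 6.36 log2 CPM on RC, and upper minus middle was 4.02 ± 0.29 (adjusted p = 0.00133). Cdkn1a, the cell cycle inhibitor p21, stood at 3.53, 0.13, 8.07 and 7.74 log2 CPM on HFD and 3.04, 0.87, 7.08 and 7.24 log2 CPM on RC, and upper minus middle was 5.64 ± 0.71 (adjusted p = 0.00482). All 6 muscle markers were measured and 5 of them were lower in the upper range, with sums of 0.599 to 3.96 CPM in the upper and 7.69 to 49.4 CPM in the middle range. By diet the muscle markers summed to 0.599 to 49.4 CPM on HFD and 3.45 to 28.1 CPM on RC, and their part in the diet results was not tested. Of the 6 adipocyte markers 5 were measured, and 3 of them were lower in the upper range, where 8 values were at 0 reads. They summed to 4520 to 7180 CPM on HFD and 5960 to 7700 CPM on RC, mostly from Car3, which hepatocytes also express (12.14 to 12.81 log2 CPM on HFD and 12.54 to 12.91 log2 CPM on RC). The fold change by diet was negative in 4 of the 5 and passed in 0, and the part of these markers in the diet results was not tested.

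**Figure D5:**
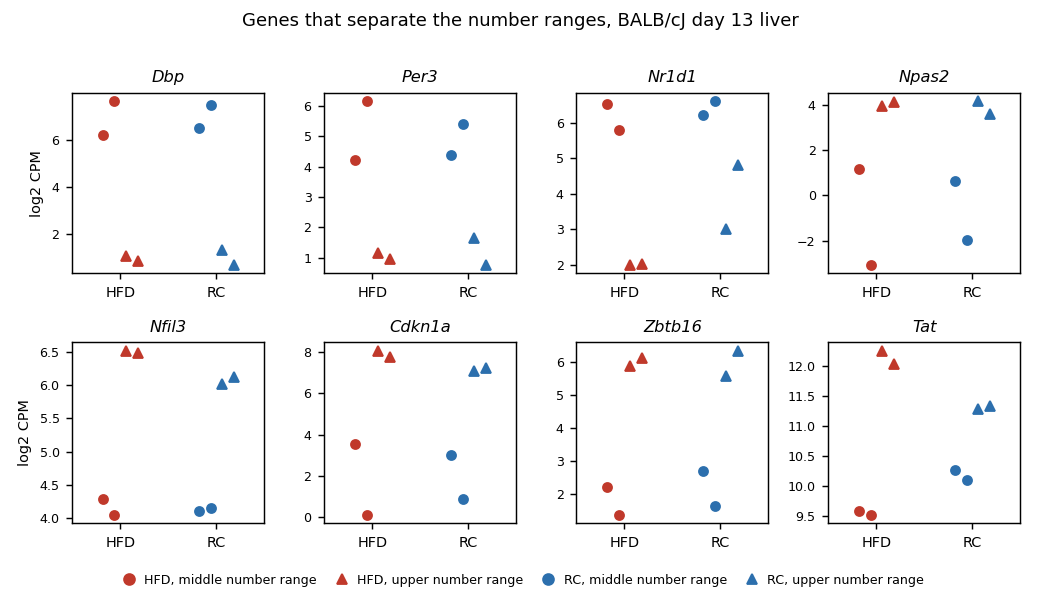
Levels (log2 CPM) of 8 genes in each BALB/cJ liver on day 13, HFD left and RC right in each panel, with circles for the middle and triangles for the upper number range. Dbp, Per3 and Nr1d1 are lower and Npas2, Nfil3, Cdkn1a, Zbtb16 and Tat higher in the upper range within both diets, and none of the 8 passed the test of diet.

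Since both diets had 2 animals of each range, the diet effect could be taken within ranges. With the groups of the 72 libraries split by number range, 9 genes passed within the middle range (0.0714%) and 103 within the upper range (0.817%). The difference of the diet effect between the ranges passed in 0 genes (0%) by limma, and 598 had an unadjusted p under 0.05. Averaged over the ranges 142 genes passed, all 46 among them. Of the 46 genes 6 also differed between the ranges, against 10.3% of all genes. They were Cyp3a11, Ugt1a9, Aldh1a7, Cyp51, Gsta2 and Hfe, each higher in the upper range. HFD minus RC for Cyp3a11 was -2.28 within the middle and -1.89 within the upper range, and for Sqle it was -2.44 and -3.56.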

How the data were processed

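RNA was extracted with the RNeasy Plus micro kit, made into TruSeq Stranded mRNA libraries and sequenced as single Illumina reads, per the labels' protocols. Per the submitters' processing notes, STAR 2.5.3a, edgeR and the GRCm38 build were used. The values are log2 CPM as deposited by the authors, 1 column per liver library. The deposited log2 values came out as whole reads in 100% of those under 2000 reads (tolerance 0.05 reads), with 0.25 reads added, so that 0 reads stand at -6.63. Of 12611 genes 12602 matched a symbol. Liver libraries of the series without a column were not analysed here, and some genes are not reported here.

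Groups were taken from the labels. limma 3.58.1 in R 4.3.3 fitted 18 group means to 72 libraries with a variance trend (54 residual degrees of freedom), two-sided, with Benjamini-Hochberg adjustment over all genes and a threshold of 0.05. A filter of log2 CPM of at least 0 in 4 animals removed 0 genes. The fit was tested on simulated data. The deposited unit is log2, and the planned count tests were not run. As an alternative, voom was run on the reads recovered from the values. The labels name separate animals.

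The group members and gene lists were chosen with earlier results of these data known. Genes named are the 15 highest and 15 lowest called fold changes, up to 4 list members of smallest p and the 6 of smallest p in each test of a difference, and others are named as list or role examples after their values were seen. For the 3 numbers found in both diets, the deviations of the HFD and the RC liver from their group means correlated at 0.50 to 0.61. The labels do not say whether a shared number pairs the animals, and pairing was not tested. Livers of the same range with another number correlated at 0.31 to 0.37 and those of the other range at -0.54 to -0.26. The build named is that of C57BL/6J, so reads of BALB/cJ may be lost where the strains differ in sequence. Alternatives covered filters, normalization, the added reads, the libraries fitted, number range, the block and each animal left out.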

Additional observations from a re-analysis of the deposited data

Results flagged for a closer look

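In 3 of 92 groups of 4 animals the end animal stood apart, with a gap to its neighbour over the group's range above Dixon's critical value. Chance gives about 1 in 20 groups. These were Idi1 in HFD animal 3HF252 (0.839), Man2b2 in HFD animal 3HF228 (0.886) and Ces2a in RC animal 3RC228 (0.931).

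The diet effect of day 13 minus the mean of days 5 and 33 passed the limma test for 14 of the 46 genes called on day 13. The day 13 effect that chose these 46 genes is part of this difference. On the log2 scale it was negative for Cyp2c55 (-1.68), Cyp3a59 (-1.15), Rnd2 (-0.79), Scpep1 (-0.47), Isoc2b (-1.86) and Mvd (-1.79). It was positive for Slc27a2 (0.71), Igfbp2 (0.96), Chrna2 (1.30), Ephx2 (0.61), Ginm1 (0.95), B430219N15Rik (4.76) and Nox4 (0.95), which rose on day 13. It was also positive for Ces2a (0.71), which fell on all 3 days. Among genes that did not pass on day 13 it was positive for Errfi1 (2.02), Enpp2 (1.35), Cebpd (2.43), Pim3 (2.52), Per1 (2.73) and Tat (2.29) and negative for Gstm4 (-1.37). The number ranges of the animals differed between days. With number range as a term the difference passed in 742 genes, which held 582 of the 603.

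The diet effect in BALB/cJ minus the mean of the other strains passed for Ly6a (-2.54) and Mmd2 (-2.45). Ly6a did not pass with the animal number as a block (adjusted p = 0.269 by limma), and Mmd2 did (0.0181).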

How the results depend on the processing

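The day 13 count of 46 genes stayed between 32 and 59 with no filter, a median-level filter, quantile normalization, 2 added reads, no variance trend, robust moderation, number range as a term, voom weights, and the 8 libraries with a range term; the last 2 were chosen after seeing the data. The run with no filter was the main fit again, since the filter removed 0 genes. Among the other fits the genes were not all the same. With the 8 libraries and a range term 23 of 43 genes were among the 46. With the median-level filter, which left some of the 46 untested, 28 of 32 were. The other fits named kept 40 to 46 of the 46 genes. The count was 5 with the 24 BALB/cJ libraries, 14 with the 8 libraries and 29 with the replicate block. It was 142 with groups split by number range, also chosen after seeing the data. Leaving out 1 animal gave 20 to 69. The difference between days (603 genes) passed in 23 with the 24 BALB/cJ libraries, 282 with the block, and 267 to 779 with 1 animal left out. The difference between strains (2 genes) passed in 0 with the median-level filter and 0 to 2 with 1 animal left out. The cause of these shifts was not tested. None of the 46 genes changed sign under any alternative run. In fits that kept the same values and group means the sign was fixed in advance. In genes without overlap it was also fixed when 1 animal was left out. Cyp3a25 and Cyp2c55 passed under every alternative that could test them. With the animal number as a block, a fit with 12 residual degrees of freedom, 25 of the 46 calls were lost and the rest kept. edgeR and DESeq2 were not run on the recovered reads, on which voom was run.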
